A study of Mus musculus with 9 samples.

Results

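The proteasome genes of mouse paraventricular hypothalamus cells were described here across 9 RNA libraries. The genes were chosen by symbol, as Psma, Psmb, Psmc, Psmd, Psme, Psmf or Psmg followed by a digit, with pseudogenes marked -ps left out. This gave 50 of the 54838 genes of the count table, of which 36 had enough counts to be tested. One of the 50, Psmc3ip, a partner of the meiotic recombinases, matches the symbol rule but is no proteasome subunit.

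The cells were cut from brain sections by laser-capture microdissection and sequenced by Smart-3SEQ, a method whose reads lie near the 3′ end of polyadenylated transcripts. The labels name 3 groups of 3 libraries, called overlap, mCherry (a red fluorescent protein) and cfos (product of the activity-induced gene Fos), all from mouse brain and all labelled as neurons. The design text speaks of cells marked by CRD, by VFF or by both in a study of visceral and somatic pain, and does not say which of these the mCherry and cfos labels stand for. Strain, sex, age, the promoter that drives mCherry and the number of cells or animals behind a library were not given in the sources used here, so that the p-values measure the spread between libraries.

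The proteasome is the large protease that degrades proteins marked with ubiquitin. Its barrel, the 20S core, has outer rings of alpha subunits that gate the entrance and inner rings of beta subunits, some of which hold the cutting sites. The 19S particle caps the barrel, with a ring of ATPases (Psmc genes) that unfold substrates and non-ATPase subunits (most Psmd genes) that bind ubiquitin and remove it. In neurons, proteasomes take part in protein turnover at synapses, and the subunits of a complete particle are needed in fixed proportion as proteins.

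Several proteasome genes have near-identical processed copies elsewhere in the genome, and a 3′ read may fall in a stretch that both hold. The last 60 coding bases are shown for 3 such pairs, because the copy's count bears directly on how the parent gene's count can be read. Sequences are those of the GENCODE M21 transcripts (mm10), 5′ to 3′, and capitals mark the bases that differ within a pair.
Psmb5 (chromosome 14): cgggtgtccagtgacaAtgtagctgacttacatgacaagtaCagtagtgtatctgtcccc
Psmb5-ps (chromosome 11): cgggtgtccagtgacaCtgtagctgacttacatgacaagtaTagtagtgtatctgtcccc
Psmb6 (chromosome 11): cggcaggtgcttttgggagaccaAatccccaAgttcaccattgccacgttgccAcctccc
Psmb6-ps2 (chromosome 1): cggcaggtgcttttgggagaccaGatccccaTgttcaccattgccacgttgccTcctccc
Psme2 (chromosome 14): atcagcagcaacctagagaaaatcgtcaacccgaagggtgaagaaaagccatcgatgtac
Psme2b (chromosome 11): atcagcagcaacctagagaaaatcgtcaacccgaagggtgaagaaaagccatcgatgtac
Within this window Psmb5 and its copy differed at 2 bases, Psmb6 and its copy at 3, and Psme2 and Psme2b at 0.

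The libraries were shallow, and not all were separate samplings. Totals were 504785 to 597898 counts in overlap, 877257 to 978877 in mCherry and 700556 to 3414593 in cfos. The columns cfos 2 and cfos 3 differed by less than the sampling noise and were counted as 1 sample, so that cfos has n = 2. The column mCherry 2 never exceeded the counts of mCherry 1 and mCherry 3 added together, in any gene, and is not independent of them, so that p-values are too small, and each comparison was repeated without it. Fos RNA was 283 CPM (CPM, the count relative to the library size scaled by trimmed means) in cfos 1, while cfos 2 and cfos 3 had 23.8 and 25.5 CPM, the mCherry libraries 11.1 to 30.6 CPM and the overlap libraries 71.5 to 279 CPM, so directions that involve cfos rest on libraries that differ in Fos. Neuron markers were present in every library, with 0 of 8 genes at 0 and a summed level of 683, 1109 and 654 CPM in overlap, 1340.4, 1329 and 1236 CPM in mCherry and 2871, 1669 and 1774 CPM in cfos. Oligodendrocyte markers, which neurons should lack, summed to 1735, 441 and 393 CPM in overlap, 2362, 1640.3 and 1241 CPM in mCherry and 6667, 4543 and 4790.0 CPM in cfos. Microglial markers summed to 156 to 240 CPM in overlap, while mCherry had 88.7 to 158 CPM and cfos 96.9 to 108 CPM, and the homeostatic microglial genes P2ry12 and Tmem119 had 7 and 4 counts over all libraries. The globin genes Hba-a1 and Hbb-bs had 0 and 7 counts over all libraries, those of Hbb-bs in overlap and cfos 1. In such pooled cells, fewer cells of a type and less RNA per cell cannot be told apart.

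Taken as 1 sum, the 50 genes held a similar part of the RNA in the 3 groups. They took 0.202%, 0.186% and 0.176% of the counts in overlap 1 to 3, 0.218%, 0.182% and 0.144% in mCherry 1 to 3, and 0.238%, 0.139% and 0.152% in cfos 1 to 3. The group values were 0.188% ± 0.0127 (SD, n = 3) in overlap, 0.181% ± 0.0371 (SD, n = 3) in mCherry and 0.192% ± 0.0657 (SD, n = 2) in cfos. These means lay closer together than the libraries of 1 group, and exact (Clopper-Pearson) 95% intervals of a library's share, which cover counting error only, were at most as wide as 0.165% to 0.188% (overlap 3). Of all member counts, 19S non-ATPases took 40.1%, alpha subunits 25.0%, assembly chaperones 14.1%, ATPases 7.45%, activators 5.91% and constitutive beta subunits 5.31%. The inducible beta subunits, counted together with the thymic form Psmb11, took 1.54%.

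**Figure D1:**
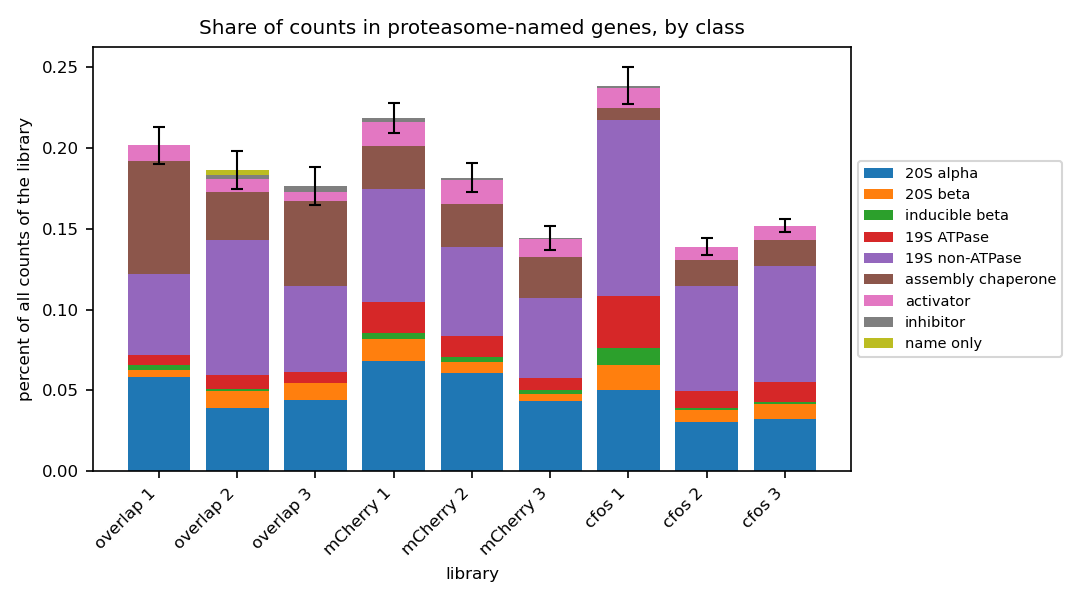
Share of each library's counts (percent, vertical axis) in proteasome-named genes, stacked by class, for 3 overlap, 3 mCherry and 3 cfos libraries. Bars for the sum are exact 95% binomial intervals; the sum is highest in cfos 1 (0.238%) and lowest in cfos 2 (0.139%), and the assembly chaperone layer is thickest in overlap 1 and overlap 3.

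The 31 obligate subunits of the particle (alpha, beta, ATPase and non-ATPase classes without the testis form Psma8) were measured at very uneven levels. Their summed count was 13730, or 77.7% of member counts, and single subunits ranged from 4 counts (Psmb2) to 2332 counts (Psmd7) over the 9 libraries. Mean levels ranged from 0.508 CPM (Psmb2) to 221 CPM (Psmd7), a ratio of 436. Per kilobase of exon, mean levels ranged from 0.357 CPM per kb (Psmb1) to 97.9 CPM per kb (Psmd7), a ratio of 275, with a median of 9.74. In 3′ libraries a level depends little on gene length, so that this scale favours short genes. A total of 8 of the 31 did not pass the count filter and 8 were at 0 in some library.

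**Figure D2:**
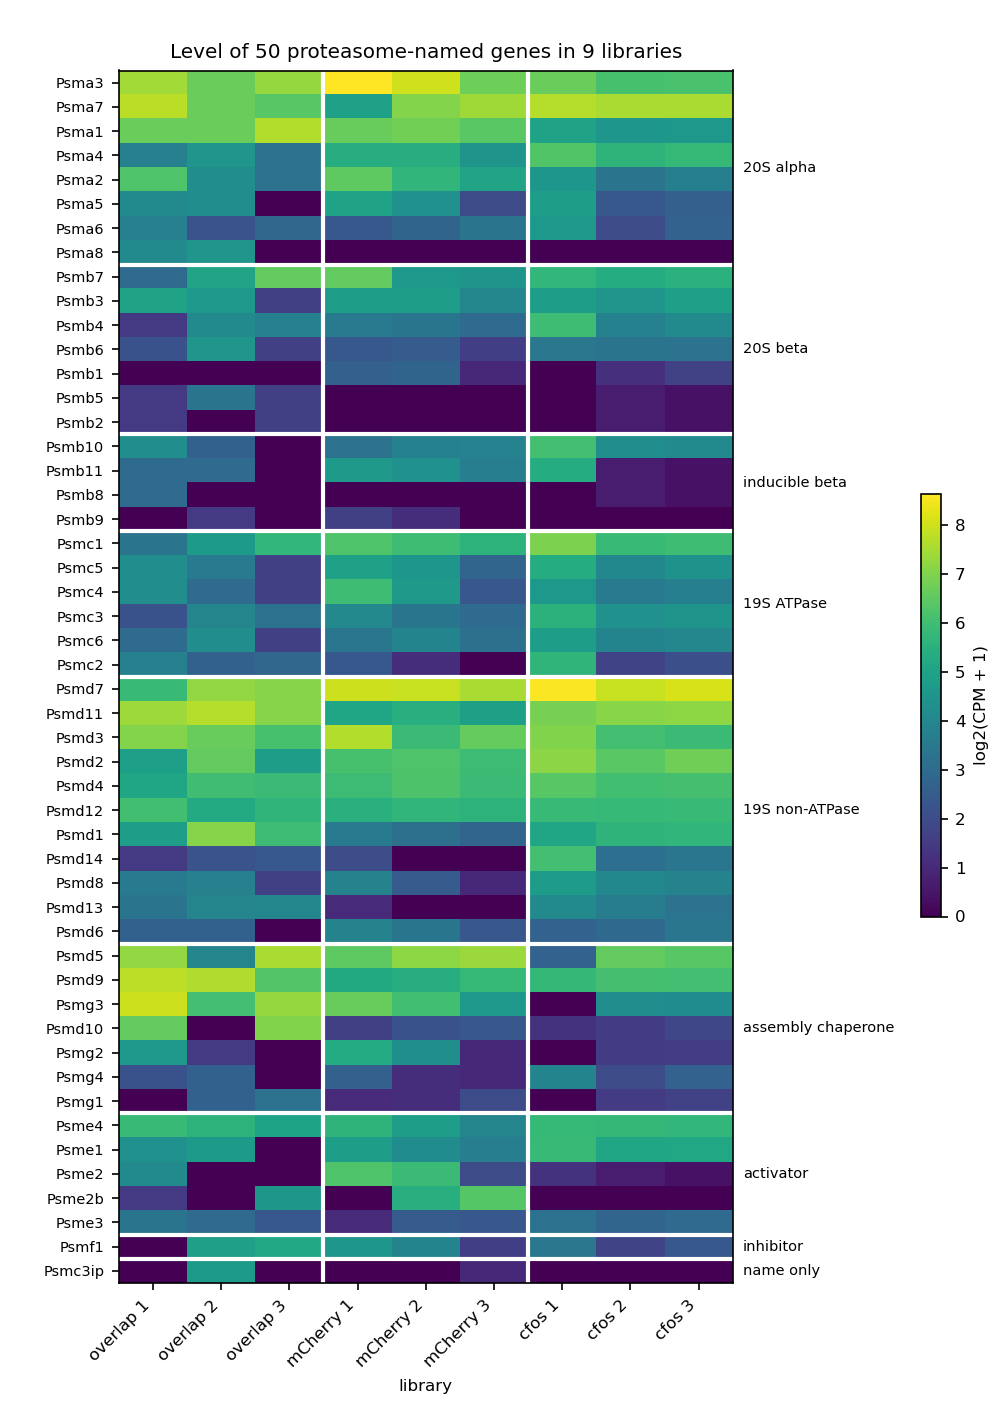
Level of each of the 50 genes (rows, grouped by class and ordered by mean CPM within it) in the 9 libraries (columns), as log2(CPM + 1) in colour. Within the alpha class Psma8 is at 0 outside overlap 1 and overlap 2, and Psmb1, Psmb2, Psmb5, Psmb8 and Psmb9 form dark rows with at most 20 counts each over all libraries.

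Among the alpha subunits, Psma7 and Psma3 came next after Psmd7 in mean level per kilobase, at 47.7 and 41.4 CPM per kb. Psma3 was at 175, 100.4 and 154 CPM in overlap 1 to 3, 399, 260.2 and 106 CPM in mCherry 1 to 3 and 99.8, 69.5 and 71.3 CPM in cfos 1 to 3. Psma7 was at 213, 100.4 and 83.3 CPM in overlap, 29.5, 132 and 169.8 CPM in mCherry and 206, 187 and 188 CPM in cfos. For Psma3 the cfos libraries were the lowest, though cfos 1 and overlap 2 were nearly level, and for Psma7 the libraries ranged widely within overlap and within mCherry. Psma3 shares sequence with the pseudogene Gm5406, which had 46 and 78 counts in mCherry 2 and mCherry 3 and 0 elsewhere. Psma1 (ENSMUSG00000030751, chromosome 7, 114264606 to 114276118) was at 102, 100.4 and 199.8 CPM in overlap, 98.00, 112 and 85.9 CPM in mCherry and 30.5, 22.6 and 23.2 CPM in cfos, with every cfos library below every other library. Psma4 was at 12.5, 21.5 and 8.33 CPM in overlap, 41.1, 40.8 and 21.2 CPM in mCherry and 77.6, 48.2 and 54.3 CPM in cfos, and its exons overlap those of AY074887 on the other strand by 114 bases, a gene with 3440 counts in these libraries. Psma8, the alpha subunit of testis proteasomes, had 9 and 12 counts in overlap 1 and overlap 2 and 0 counts in every other library, so that it passed the count filter through overlap alone.

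Of the 3 catalytic subunits of the constitutive core, 2 did not pass the count filter. Psmb5, which carries the chymotrypsin-like site, had 1, 5 and 1 counts in overlap, 0, 0 and 0 counts in mCherry and 0, 1 and 1 counts in cfos. Psmb6, which carries the caspase-like site, had 2, 12 and 1 counts in overlap, 4, 4 and 2 counts in mCherry and 7, 15 and 27 counts in cfos. Only Psmb7 of the 3, which carries the trypsin-like site, passed the count filter, with 7.15, 32.3 and 93.7 CPM in overlap, 93.8, 23.3 and 21.2 CPM in mCherry and 51.3, 39.6 and 45.4 CPM in cfos. The overlap libraries alone spanned 7.15 to 93.7 CPM, so that the groups did not separate. The non-catalytic beta subunits Psmb1 and Psmb2 had 20 and 4 counts in all, and Psmb3 and Psmb4 had 238 and 156.

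The counts of both sparse catalytic genes were far below those of the copies printed above. Psmb5-ps aligned to Psmb5 over 783 bases at 95.02% identity, with a longest identical run of 53 bases, and had 53, 87 and 30 counts in overlap, 294, 133 and 61 in mCherry and 183, 274 and 472 in cfos. Its total of 1587 counts stood against 9 for Psmb5, and the copy was above the gene in 9 of 9 libraries. A closer copy of Psmb5 by identity, Gm3375, was 98.99% identical over 795 bases, with a longest run of 194 bases, and had 12 counts in all, with 9, 0 and 1 in overlap, 0, 0 and 0 in mCherry and 0, 0 and 2 in cfos. Psmb6-ps2 aligned to Psmb6 over 704 bases at 93.9% identity, with a longest run of 69 bases, and had 62, 20 and 82 counts in overlap, 33, 25 and 19 in mCherry and 86, 179 and 328 in cfos. It was above Psmb6 in 9 of 9 libraries as well (834 against 74 counts), and a further copy, Psmb6-ps, had 356 counts and was above Psmb6 in 6 of 9. The count table has these copies as rows of their own, and how reads that match both a gene and its copy were assigned was not given in the sources used here. Whether reads of Psmb5 or Psmb6 were counted at a copy was not tested.

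Near-identical pairs were also aligned for Psma5 and Psme2. Gm5422 shares 745 exact stretches of 50 bases with Psmd2 and Gm13835 shares 636 with Psma3, and these pairs were not aligned. Psma5 and Gm12989 were 99.0% identical over 723 bases. Psma5 had 111 counts in all and Gm12989 had 521, the copy with 41, 31 and 134 counts in overlap, 0, 107 and 190 in mCherry and 0, 8 and 10 in cfos. Psme2 and Psme2b, annotated as protein-coding and both members, were 99.4% identical over 794 bases with a run of 341 identical bases. Psme2 had 9, 0 and 0 counts in overlap, 72, 50 and 3 counts in mCherry and 1, 1 and 1 counts in cfos. Psme2b had 1, 0 and 11 counts in overlap, 0, 37 and 81 counts in mCherry and 0, 0 and 0 counts in cfos. In mCherry, library 1 had counts of Psme2 alone, library 3 had nearly all counts of the pair at Psme2b, and library 2 had both. Shared sequence was searched only in pseudogenes not annotated as unprocessed or unitary, and between Psme2 and Psme2b. At least 10 exact stretches of 50 bases had to be shared. By this rule 16 of the 50 members matched 27 other genes elsewhere, and 34 members had no such match. Matches to other kinds of genes were not kept.

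**Figure D3:**
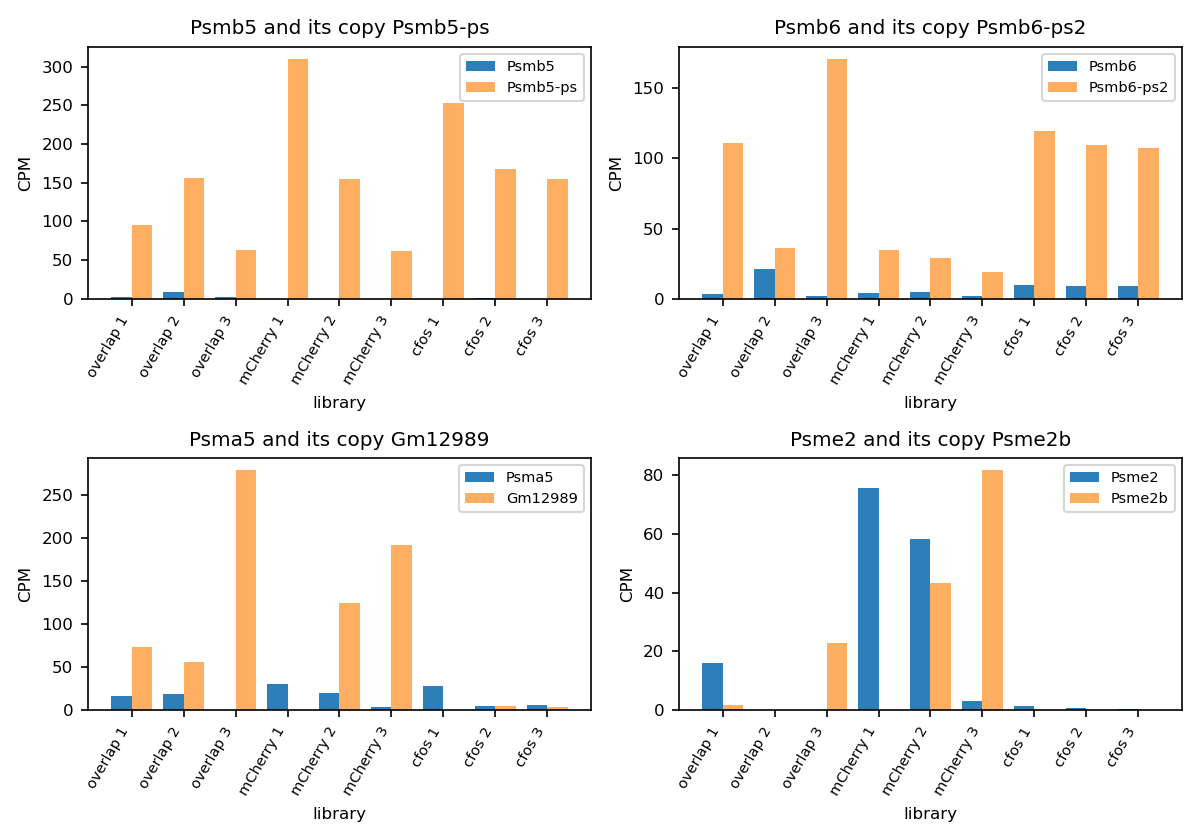
Level in CPM (vertical axes) of 4 genes (blue) and of a near-identical copy (orange) in each of the 9 libraries. Psmb5-ps and Psmb6-ps2 exceed their parent genes in every library, Gm12989 exceeds Psma5 in 6 of 9, and Psme2 and Psme2b have counts mainly in mCherry.

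The inducible beta subunits, which interferon gamma puts in place of the constitutive catalytic subunits to form the immunoproteasome, were low. Psmb8, the counterpart of Psmb5, had 6 counts in all, and Psmb9, the counterpart of Psmb6, had 4. With 0 counts a library still allows up to 3, which is 5.37 to 6.24 CPM for the overlap libraries, 3.03 to 3.50 CPM for mCherry and 0.981 to 4.16 CPM for cfos. Psmb10, the counterpart of Psmb7, had 10, 3 and 0 counts in overlap, 8, 11 and 13 counts in mCherry and 47, 29 and 51 counts in cfos. This was 65.1 CPM in cfos 1 against at most 17.9 CPM in any other library. Psmb11, the form of the thymic cortex, was at 7.15, 7.17 and 0 CPM in overlap, 24.2, 19.8 and 12.1 CPM in mCherry and 40.2, 0.61 and 0.327 CPM in cfos, with single counts in cfos 2 and cfos 3. The list of 8 interferon-induced genes summed to 637, 181 and 269 CPM in overlap, 192, 100.3 and 78.8 CPM in mCherry and 219, 138 and 138 CPM in cfos, so that its highest library was overlap 1, not cfos 1, and its part in the Psmb10 values was not tested.

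As a sum, the 6 ATPases of the 19S base were lower in overlap than in most other libraries, but Psmc2 was not. Their summed level was 67.97, 80.6 and 72.9 CPM in overlap, 196, 132 and 72.8 CPM in mCherry and 308, 118 and 135 CPM in cfos, which put all 3 overlap libraries below every cfos library and, with mCherry 3 at 72.8 CPM, within the lowest end of mCherry. The fitted log2 fold change was below 0 in 5 of 5 tested ATPases against mCherry (median -0.89) and in 5 of 5 against cfos (median -1.49), beside 47.7% and 45.4% of all tested genes below 0, and no single gene passed the test. Psmc1, the member with the highest counts of the class, was at 8.94, 25.1 and 52.04 CPM in overlap, 75.9, 60.7 and 47.5 CPM in mCherry and 121, 56.1 and 61.8 CPM in cfos. All 3 overlap libraries were below all cfos libraries for Psmc1, and overlap 3 was above mCherry 3. Neuron markers had the same direction, with 7 of 8 below 0 against mCherry and 8 of 8 against cfos. Oligodendrocyte markers were below 0 in 5 of 5 tested genes in both comparisons, and the overlap libraries were the shallowest. The part of these in the ATPase values was not tested. In cfos 1 the ATPase sum was 308 CPM, more than in any other library, and Psmc2 had 36 counts there against 0 to 10 in each of the others. Psmc2, which did not pass the count filter, was at 12.5, 5.38 and 6.24 CPM in overlap and 4.21, 1.17 and 0 CPM in mCherry. In cfos it was at 49.9, 2.44 and 3.27 CPM, so that every overlap library was above every library but cfos 1.

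Among the 11 non-ATPase subunits, Psmd11, Psmd1 and Psmd13 had low levels in mCherry, while Psmd7 had low levels in overlap. Psmd11 (ENSMUSG00000017428, chromosome 11, 80428615 to 80473248) forms part of the lid and clamps the 19S particle to the core. It was at 166, 203 and 135 CPM in overlap 1 to 3, 33.7, 43.2 and 29.3 CPM in mCherry 1 to 3 and 116, 137 and 142 CPM in cfos 1 to 3. All mCherry libraries were below all others, and overlap and cfos did not separate. Psmd11 shares 393 stretches of 50 bases with the pseudogene Gm14048, which had 4, 13 and 11 counts in overlap, 16, 0 and 0 in mCherry and 0, 106 and 177 in cfos. Psmd1 (ENSMUSG00000026229, chromosome 1, 86064387 to 86139151), a scaffold subunit of the base, was at 26.8, 133 and 60.4 CPM in overlap, 10.5, 8.17 and 6.06 CPM in mCherry and 33.3, 48.8 and 50.7 CPM in cfos, again with mCherry below every other library. Its exons overlap those of Htr2b, a gene of 13 counts, on the other strand by 252 bases. Psmd13, a lid subunit, had 5, 8 and 7 counts in overlap, 1, 0 and 0 counts in mCherry and 12, 19 and 27 counts in cfos. Its exons overlap those of Sirt3, a gene of 650 counts beside 79 for Psmd13, on the other strand by 342 bases, and without a stated strand setting reads in these shared bases cannot be assigned to either gene. Psmd7 (ENSMUSG00000039067, chromosome 8, 107580381 to 107588464), the partner of the deubiquitinase in the lid, was at 57.2, 152 and 133 CPM in overlap, 255, 241 and 186 CPM in mCherry and 387, 240.2 and 276 CPM in cfos, with each overlap library below every mCherry and cfos library.

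Subunits that handle ubiquitin include Psmd4, Psmd2 and Psmd14. Psmd4, a ubiquitin receptor, was at 33.98, 62.7 and 58.3 CPM in overlap, 60.1, 73.5 and 58.6 CPM in mCherry and 83.1, 64.02 and 67.01 CPM in cfos. Psmd2, which docks ubiquitin shuttles, was at 28.6, 93.2 and 27.1 CPM in overlap, 68.5, 75.8 and 59.6 CPM in mCherry and 139.9, 84.8 and 109 CPM in cfos. Both had overlapping overlap and mCherry libraries. Psmd14, the deubiquitinase that cuts ubiquitin chains off substrates, did not pass the count filter and had 1, 2 and 2 counts in overlap, 3, 0 and 0 counts in mCherry and 48, 13 and 29 counts in cfos, so that 48 of its 98 counts came from cfos 1. Psmd3 was at 131, 98.6 and 68.7 CPM in overlap, 201, 58.3 and 97.03 CPM in mCherry and 129, 66.5 and 58.2 CPM in cfos, and Psmd12 was at 64.4, 37.6 and 49.96 CPM in overlap, 44.3, 50.2 and 47.5 CPM in mCherry and 56.8, 54.3 and 57.2 CPM in cfos. Psmd12 varied little beside these, with 47.3 ± 2.96 CPM in mCherry (SD, n = 3) and 50.7 ± 13.4 CPM in overlap (SD, n = 3). Psmd6 and Psmd8 had 75 and 118 counts in all.

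Assembly chaperones, which help build the particle and leave it, had higher sums in overlap. Their summed level was 748, 290.3 and 558 CPM in overlap, 273, 272 and 248 CPM in mCherry and 73.4, 187 and 180.1 CPM in cfos, with every overlap library above every cfos library and above every mCherry library. In overlap 2, Psmd9 alone made up 197 of the 290.3 CPM, so that its place above mCherry rests on that gene. Against mCherry, 3 of 5 tested chaperones were above 0 and 2 below. Microglial markers were above 0 in 3 of 4 tested genes in overlap against mCherry and against cfos, and interferon-induced genes in 3 of 3, and their part in these sums was not tested. Psmd9, a chaperone of the base, was at 222, 197 and 79.1 CPM in overlap, 36.9, 40.8 and 54.6 CPM in mCherry and 52.7, 67.1 and 66.03 CPM in cfos, with the overlap libraries above all others. Its exons overlap those of Gm26745, a gene of 31 counts, on the other strand by 1849 bases. Psmd10 (gankyrin), another base chaperone, had 52, 0 and 62 counts in overlap, 2, 3 and 4 counts in mCherry and 1, 3 and 8 counts in cfos. Thus 52 and 62 of its 135 counts came from overlap 1 and overlap 3, while overlap 2 had 0. Psmd10 passed the count filter only with both overlap 1 and overlap 3 present. Psmd5, a further base chaperone, was at 152, 14.3 and 187 CPM in overlap, 89.6, 142 and 161 CPM in mCherry and 5.54, 93.3 and 84.01 CPM in cfos, and ranged widely within overlap and between cfos 1 and the other cfos libraries.

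The Psmg genes encode chaperones that guide assembly of the alpha ring. Psmg3 (ENSMUSG00000029551, chromosome 5, 139823592 to 139826885) was at 254, 66.3 and 154 CPM in overlap, 99.1, 64.2 and 23.2 CPM in mCherry and 0, 17.7 and 17.7 CPM in cfos. Each overlap library was above each cfos library, and overlap 2 was within the mCherry range. Its partner Psmg4 had 2, 3 and 0 counts in overlap, 5, 1 and 1 counts in mCherry and 10, 5 and 17 counts in cfos. Psmg2 had 13, 1 and 0 counts in overlap, 37, 16 and 1 counts in mCherry and 0, 3 and 6 counts in cfos, and its partner Psmg1 had 0, 3 and 4 counts in overlap, 1, 1 and 3 counts in mCherry and 0, 3 and 7 counts in cfos. Psmg1 and Psmg4 did not pass the count filter, so that neither pair could be compared as a pair.

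The activators and the inhibitor bind the open ends of the core. Psme1, which forms a ring with Psme2, was at 19.7, 25.1 and 0 CPM in overlap, 27.4, 17.5 and 12.1 CPM in mCherry and 55.4, 32.9 and 35.3 CPM in cfos. Psme4, an activator that caps the core without ATP, was at 57.2, 46.6 and 31.2 CPM in overlap, 48.5, 26.8 and 14.1 CPM in mCherry and 54.04, 53.05 and 51.6 CPM in cfos. Psme3, a nuclear activator, had 58 counts in all and 1 to 22 in each library. All cfos libraries were above all mCherry libraries for both Psme1 and Psme4. Psmf1, which encodes the inhibitor, had 0, 16 and 17 counts in overlap, 21, 12 and 2 counts in mCherry and 7, 4 and 13 counts in cfos.

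**Figure D4:**
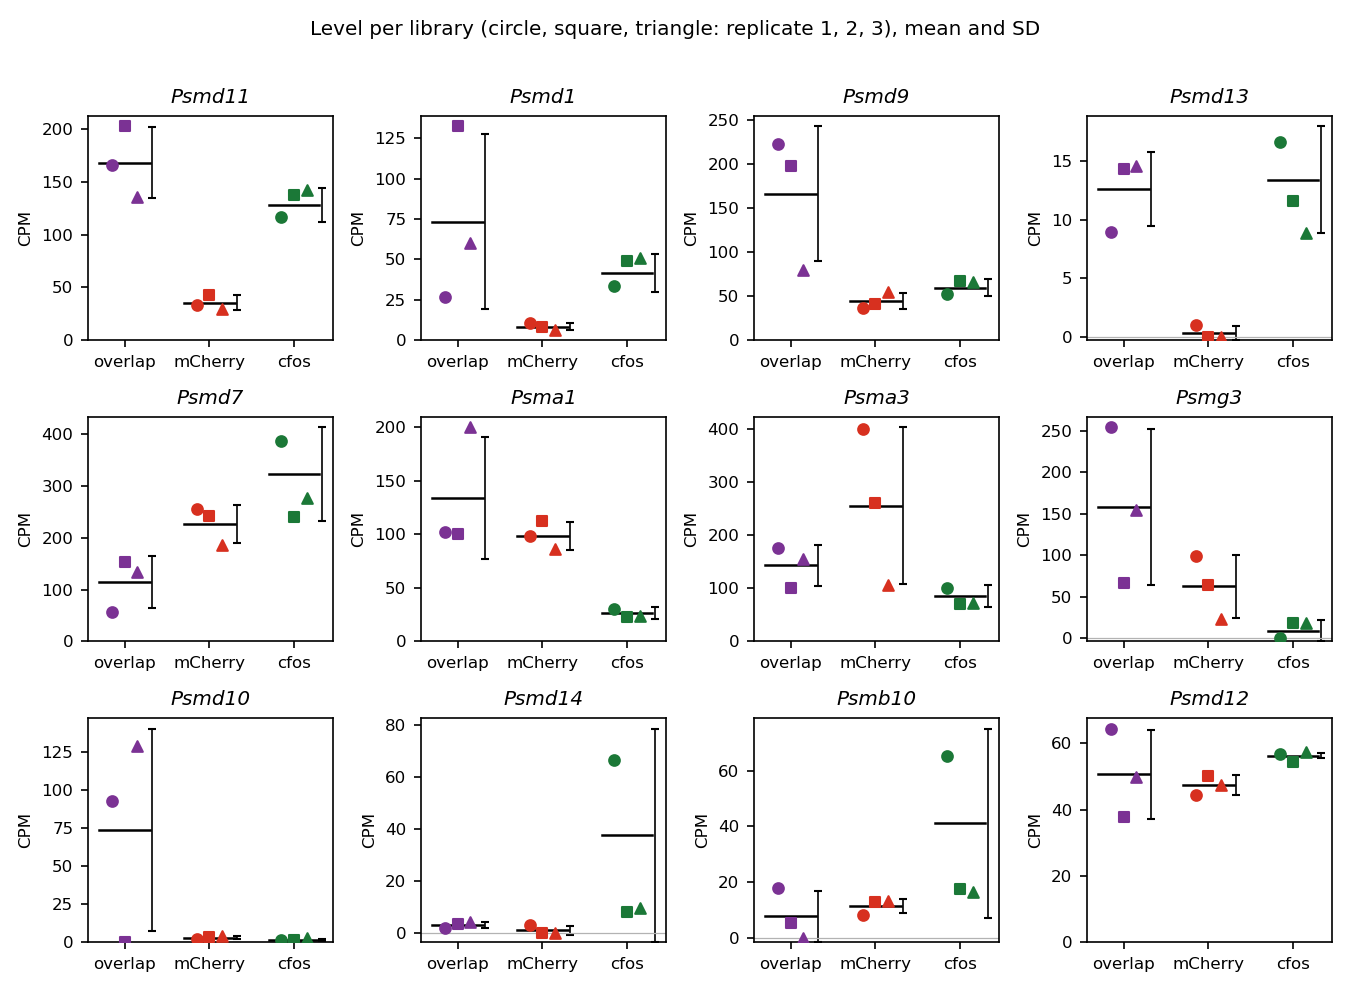
Level in CPM (vertical axes, linear) of 12 members in the 3 groups; circle, square and triangle stand for replicates 1, 2 and 3, the line is the group mean and the bar its SD, with cfos 2 and cfos 3 entering as 1 sample (n = 2). Psmd11, Psmd1 and Psmd13 are lowest in mCherry, Psmd7 is lowest in overlap, Psma1 is lowest in cfos, Psmd10 is high in 2 overlap libraries only, and Psmd14 and Psmb10 are high in cfos 1 only.

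The libraries with the highest values differed between members. Of the 31 obligate subunits, 14 (45.2%) had their highest level in cfos 1, beside 16.5% of all 16410 tested genes. A further 7 (22.6%) had it in mCherry 1, beside 14.3%. The 31 include 8 that did not pass the count filter, Psmd14 and Psmc2 among them, so these shares rest on unlike sets. The members with the highest level in cfos 1 included Psmd14, Psmc2, Psmb4 and all but 1 of the ATPases. The corresponding count was 0 of 31 in mCherry 3, cfos 2 and cfos 3, beside 13.8%, 13% and 3.12% of tested genes. A count in 1 library has no replicate, and cfos 1 also had the highest neuron and oligodendrocyte marker sums and the highest Fos, whose part in these values was not tested.

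The first comparison, overlap against mCherry, asks what sets doubly marked cells apart from cells with the mCherry mark. No member passed the test, and the lowest adjusted p of a member was 0.2575. By edgeR's quasi-likelihood test with Benjamini-Hochberg adjustment over all tested genes, 0 of 36 members and 0 of 16410 genes (0%) had an adjusted p under 0.05. At an unadjusted p under 0.05 there were 6 members, which is 16.7% of 36 and near the 15% of all genes tested. There were 6 higher in overlap (beside 10.1% of genes) and 0 lower (beside 4.9%), but Psma8 and Psmd10, both among the 6, passed the count filter through their overlap counts, which fixed their direction. Psmd13, also among the 6, had 1, 0 and 0 counts in mCherry. It passed the count filter only through its overlap and cfos counts, which fixed its direction against mCherry. The median log2 fold change of the members was -0.28, beside 0.09 over all genes, with 22 of 36 below 0 (beside 47.7% of genes). By class, values above 0 were seen for 3 of 7 tested alpha subunits, 5 of 9 non-ATPases, 3 of 5 assembly chaperones and 1 of 4 activators. These counts include Psma8, Psmd13 and Psmd10, whose direction the filter had fixed.

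Psmd11 had a log2 fold change of 2.24 (SE 0.55, unadjusted p = 0.002199, adjusted p = 0.2575 by edgeR), with all 3 overlap libraries above all mCherry libraries. Psmd1 had a log2 fold change of 3.13 (SE 0.98, edgeR adjusted p = 0.2655), and Psmd9 had a log2 fold change of 1.91 (SE 0.64, edgeR adjusted p = 0.2748). Psmd13, with 20 counts in overlap and 1 in mCherry, had a ratio of 35 per effective library size, with an exact 95% interval of 5.598 to 1451 that covers counting error only. The other members under 0.05 were Psma8, with 21 counts in overlap and 0 in mCherry, and Psmd10, with 52, 0 and 62 counts in overlap and 2 to 4 in each mCherry library, and both are given by their counts only. Psmd13, Psmd10 and Psma8 were named after their values had been seen.

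In the other direction, Psmd7 had a log2 fold change of -0.99 (SE 0.46, unadjusted p = 0.05744, adjusted p = 0.3448 by edgeR), with the groups apart. Psme2 had a log2 fold change of -3.05 (SE 1.78, edgeR adjusted p = 0.4609), which was -8.50 without overlap 1, the library that holds all 9 of its overlap counts. Psme2 passed the count filter only with its mCherry counts. Psma3 had a log2 fold change of -0.83 (SE 0.55, edgeR adjusted p = 0.5293), and for Psme2 and Psma3 the libraries of the groups overlapped. Groups that did not overlap were seen for 4 members higher in overlap, Psmd13 among them (11.1%, beside 13.5% of tested genes), and 2 lower (5.56%, beside 8.88%). By other tools more members passed. DESeq2 called 905 genes (6.13%) and 3 members (Psmd11, Psmd1 and Psmd9), and limma-voom called 1332 genes (8.12%) and 5 members, these 3 with Psmd13 and Psma8. Of these, Psma8 could be tested through overlap alone and Psmd13 only through overlap and cfos. For Psmd11 the adjusted p ran from 0.0001009 to 0.8635 over the alternatives. Without mCherry 2, edgeR called 0 members and 0 genes (0%), 1 of 35 members was under 0.05 unadjusted (beside 6.44% of genes), and the median was -0.54. DESeq2 without it called 1 member (Psmd11), beside 1.23% of genes. The median turned to 0.01 without overlap 3.

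Overlap was then compared with cfos. Again no member passed the test by edgeR (0 of 36, with 0% of 16410 genes called), and the lowest adjusted p of a member was 0.3558. At an unadjusted p under 0.05 there were 3 members higher in overlap (beside 8.69% of genes) and 1 lower (beside 3.14%), in all 11.1% of 36 beside 11.8% of genes. The median log2 fold change was -0.19, beside 0.12 over all genes, with 21 of 36 below 0.

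Psma1 had a log2 fold change of 2.33 (SE 0.73, unadjusted p = 0.009329, adjusted p = 0.3558 by edgeR) and was higher in all overlap than in all cfos libraries. Psmg3 had a log2 fold change of 4.04 (SE 1.43, edgeR adjusted p = 0.3764), also with the groups apart. The other member higher in overlap at this level was Psmd10, which was tested only through its counts in overlap 1 and overlap 3 and is given by its counts above. Lower in overlap was Psmd7, with a log2 fold change of -1.50 (SE 0.50, unadjusted p = 0.01405, adjusted p = 0.3678 by edgeR). Psma4 had a log2 fold change of -2.18 (SE 1.00, edgeR adjusted p = 0.43) and Psmc1 had a log2 fold change of -1.64 (SE 0.93, edgeR adjusted p = 0.5158), each with every overlap library below every cfos library. By class, all 5 tested assembly chaperones, Psmd10 among them, were above 0 (median 2.91) and all 5 tested ATPases were below 0, beside 45.4% of all genes below 0. The 3 tested constitutive beta subunits, the inducible Psmb10 and the thymic form Psmb11 were below 0, though Psmb7 was at -0.09 (SE 1.19). Psmb4, Psmb10 and Psmb11 had their highest level in cfos 1. Psmb11 was at 7.15 and 7.17 CPM in overlap 1 and overlap 2 against 0.61 and 0.327 CPM in cfos 2 and cfos 3. Of the constitutive beta subunits not tested, Psmb2 and Psmb5 had a higher mean in overlap than in cfos, and Psmb1 and Psmb6 a lower one.

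Groups did not overlap for 4 members higher in overlap (11.1%, beside 13.1% of genes) and for 7 lower (19.4%, beside 11.1%). Here cfos 2 and cfos 3 entered as separate libraries. DESeq2 called 893 genes (6.05%) and 3 members (Psma1, Psmg3 and Psmd10, the last tested only with overlap 1 and overlap 3 present), while limma-voom called 0 members and 0% of genes, with 2355 genes and 6 members at an unadjusted p under 0.05. For Psma1 the adjusted p ran from 0.002618 to 0.6637 over the alternatives. Without mCherry 2, edgeR called 0 members, 4 of 35 were under 0.05 unadjusted (beside 8.33% of genes), and the median was -0.14. DESeq2 without it called 2 members (Psmg3 and Psma1), beside 3.05% of genes. Without cfos 1, 2 of 41 members were under 0.05 unadjusted (beside 8.87% of genes) and the median turned to 0.24, and without overlap 1, 2 of 34 were (beside 9.93%) and the median was -0.62.

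The comparison of cfos with mCherry shares its libraries with the other 2 and adds no independent evidence to them. Here too, edgeR called 0 of 36 members and 0% of genes, and the lowest adjusted p of a member was 0.2363. At an unadjusted p under 0.05 there were 3 members higher in cfos (beside 7.49% of genes) and 4 lower (beside 10.2%), in all 19.4% of 36 beside 17.7% of genes. Psme2 and Psme2b, both among the 4 lower, passed the count filter only with their mCherry counts, which fixed their direction. Psmd13, among the 3 higher, passed it only through its overlap and cfos counts, which fixed its direction against mCherry. The median was 0.25 over the 35 members with a count in either group, beside 0.04 over all genes, with 22 above 0 and 13 below (beside 47.7% of genes). By class, 8 of 9 non-ATPases (Psmd13 among them), 4 of 5 ATPases and 3 of 3 constitutive beta subunits were above 0, while 4 of 5 assembly chaperones were below 0.

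Psmd11 had a log2 fold change of 1.85 (SE 0.58, unadjusted p = 0.009781, adjusted p = 0.2363 by edgeR), and all cfos were above all mCherry libraries. Psmd13, with 35 counts in cfos (cfos 2 and cfos 3 averaged) against 1 in mCherry, had a ratio of 31.6, with a 95% interval of 5.31 to 1284 that covers counting error only. Psmd1 had a log2 fold change of 2.31 (SE 1.01, edgeR adjusted p = 0.2781). Lower in cfos was Psma1, with a log2 fold change of -1.89 (SE 0.71, unadjusted p = 0.02389, adjusted p = 0.2572 by edgeR). Psma3 had a log2 fold change of -1.59 (SE 0.64, edgeR adjusted p = 0.2637). Psme2b, with 118 counts in mCherry 2 and mCherry 3 and 0 in cfos, was at least 43.6-fold lower in cfos, and Psme2, with 125 against 2 counts, had a ratio of 69.2 between mCherry and cfos (95% interval 18.8 to 578, counting error only). Both genes passed the count filter only with their mCherry counts, which fixed this direction. Psme2 was named after its value had been seen.

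Groups did not overlap for 14 members higher in cfos, Psmd13 among them (38.9%, beside 17.2% of tested genes), and 5 lower, Psme2 among them (13.9%, beside 13.6%). Neuron markers, of which 8 of 8 were above 0, moved in the same direction, and their part was not tested. DESeq2 called 1530 genes (10.2%) and 2 members (Psmd11 and Psma1), and limma-voom called 2163 genes (13.2%) and 4 members, these 2 with Psmd1 and Psmd13. Of these, Psmd13 could be tested only through its overlap and cfos counts. For Psmd11 the adjusted p ran from 0.005984 to 0.6742 over the alternatives. Without mCherry 2, edgeR called 0 members, 3 of 35 were under 0.05 unadjusted (beside 9.31% of genes), and the median was 0.11. DESeq2 without it called 0 members, beside 4.49% of genes, and without cfos 1 the edgeR median was 0.00. At an unadjusted p under 0.05 there were 2 of 41 members without cfos 1 (beside 13.4% of genes) and 4 of 35 without mCherry 1 (beside 16.7%).

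**Figure D5:**
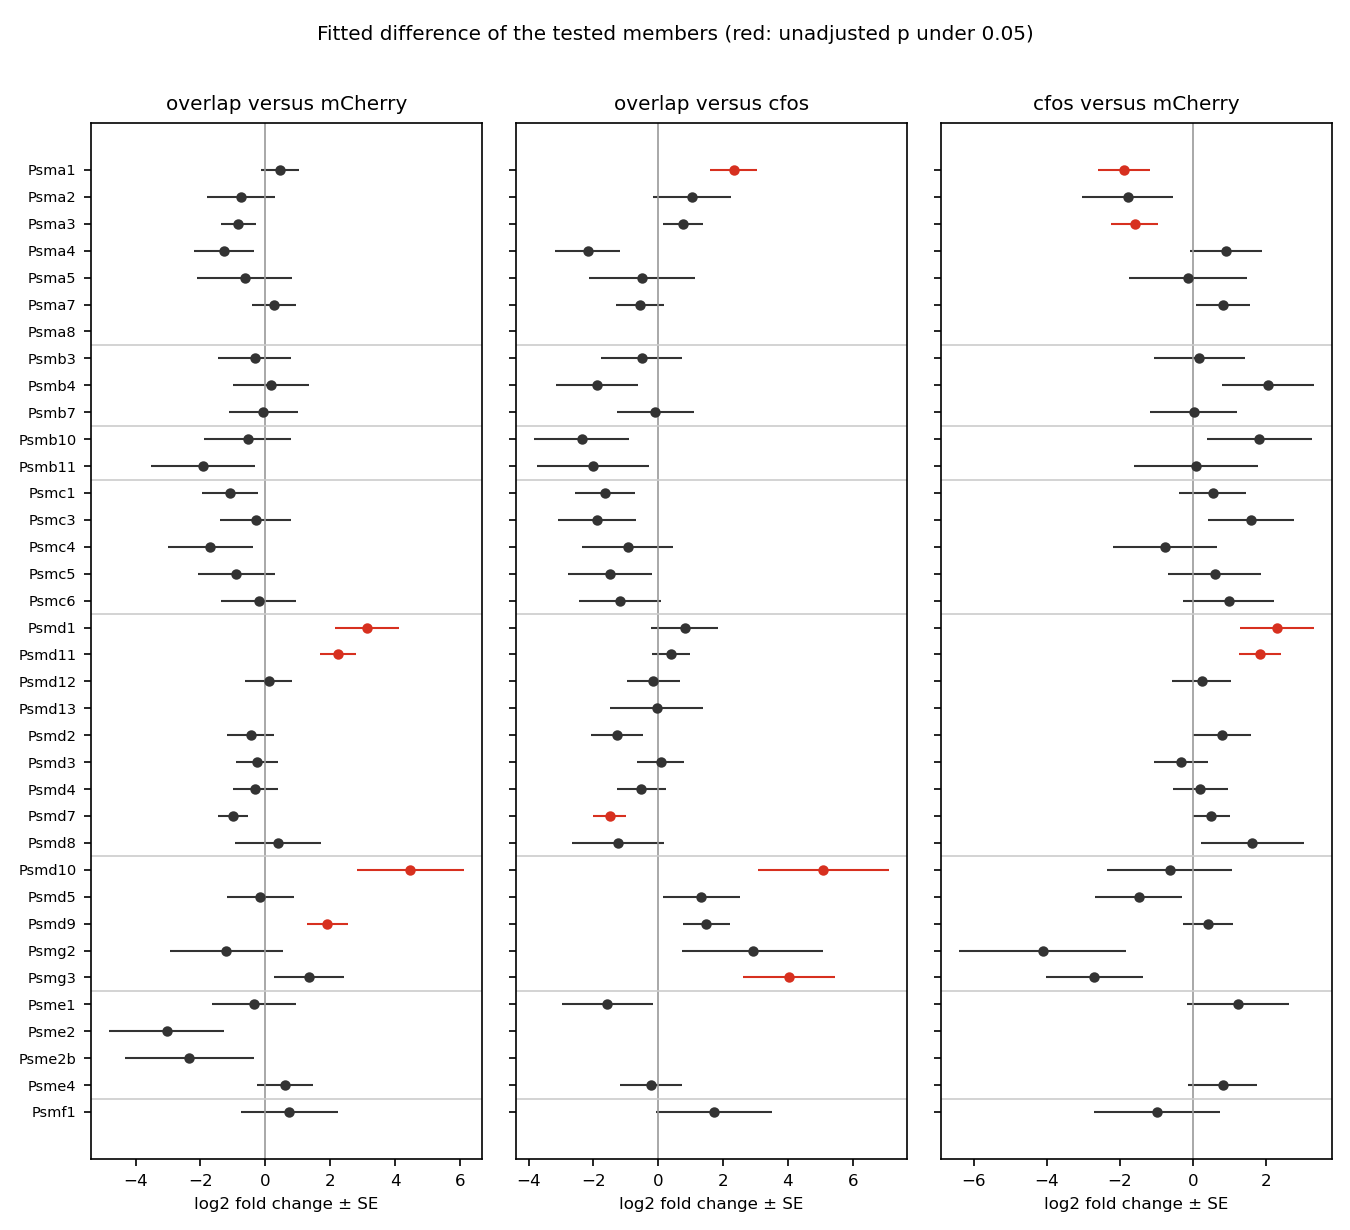
Fitted log2 fold change with its SE (horizontal axes) of the tested members (rows, by class) in the 3 comparisons; red marks an unadjusted p under 0.05. Values that rest on at most 3 counts in a group are not drawn. The 5 ATPases lie left of 0 in both comparisons of overlap, and the 5 assembly chaperones lie right of 0 against cfos. For Psmd5, Psmd10 and Psmg2 the overlap and cfos libraries were not apart.

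Spread between replicates was large for these genes. Over the 36 tested members, the median coefficient of variation was 76.0% in overlap (n = 3), beside 72.6% over all tested genes, and 40.7% in mCherry, beside 57.8%, where mCherry 2 shares counts with the other libraries. The biological coefficient of variation of the whole fit was 0.958.

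Other genes of the ubiquitin-proteasome pathway were taken as a list of 28, of which 25 were tested. By edgeR 0 of them passed in any comparison. At an unadjusted p under 0.05, there was 1 higher and 1 lower in overlap against mCherry, 0 higher and 1 lower against cfos, and 2 higher and 1 lower in cfos against mCherry, beside 15%, 11.8% and 17.7% of all tested genes in either direction. Fitted values were above 0 for 13 and below 0 for 12 in overlap against mCherry, above 0 for 5 and below 0 for 20 against cfos, and above 0 for 17 and below 0 for 8 in cfos against mCherry. Over all tested genes, 47.7%, 45.4% and 47.7% were below 0. The respective medians of the list were 0.11, -0.53 and 0.90, beside 0.09, 0.12 and 0.04 over all genes. Neuron markers were below 0 in 8 of 8 genes in overlap against cfos and above 0 in 8 of 8 in cfos against mCherry, and their part in these values was not tested.

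Of these genes, Nploc4, a cofactor of the unfoldase p97, had 24, 2 and 7 counts in overlap, 0, 0 and 0 counts in mCherry and 9, 286 and 475 counts in cfos. Vcp, which encodes p97 itself, was at 80.5, 274 and 321 CPM in overlap, 113, 96.8 and 97.03 CPM in mCherry and 393, 199 and 209 CPM in cfos. Txnl1, a thioredoxin-like protein that binds the 19S particle, was at 5.37, 5.38 and 6.24 CPM in overlap, 11.6, 16.3 and 7.07 CPM in mCherry and 51.3, 20.7 and 25.8 CPM in cfos. Each overlap library was below every other library for Txnl1, but with only 3, 3 and 3 counts in overlap against 7 in mCherry 3. Pomp, the chaperone that matures the core, was at 148, 195 and 192 CPM in overlap, 51.6, 147 and 193 CPM in mCherry and 92.8, 174 and 148 CPM in cfos, and its groups overlapped.

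Proteasome genes are known to be induced together by Nfe2l1, a transcription factor processed by Ddi2 when proteasome activity falls short. Nfe2l1 was at 16.1, 55.6 and 20.8 CPM in overlap, 57.96, 58.3 and 30.3 CPM in mCherry and 183, 54.3 and 66.03 CPM in cfos, with its highest value in cfos 1. Promoter sequences from RefSeq (GRCm38.p6), running from 250 bases before to 50 after the start of the gene, were matched for 42 of the 50 members. The antioxidant response element core TGACNNNGC, searched on both strands, was found in 6 of 42 (14.3%), beside 14.0% of 27025 genes. The motif CCAAT, also searched on both strands, was found in 15 of 42 (35.7%), beside 41.1%. The windows of the catalytic subunits Psmb5 and Psmb6 are shown as examples of matches close to the start site, with the motif in capitals.
Psmb5 (promoter chr14:54617946-54618245, minus strand): cgtgaagttgTGACGTCGCggcgttgcca
Psmb6 (promoter chr11:70525107-70525406, plus strand): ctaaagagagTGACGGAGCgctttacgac
The remaining matches were in Psmc6, Psmd12, Psmd9 and Psme4. A match describes these letters only and does not show binding.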

How the data were processed

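The authors deposited 1 table of raw counts, with a row per gene and 9 columns. Per the labels' protocols, RNA of laser-captured cells was made into Smart-3SEQ libraries. Per the submitters' processing notes, the reads were handled by STAR, Trim Galore, featureCounts and UMI-tools on mm10. Versions, annotation, strand setting, the use of molecular identifiers and the treatment of reads with several matches were not given in the sources used here. PCR copies may therefore be among the counts, and intervals and limits hold for counting error alone.

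The members and the lists of classes, pathway genes and markers were chosen with earlier results of these data known. Values were given for every catalytic, inducible, activating, inhibiting, assembly and ubiquitin-handling member, the 5 of highest mean CPM, and the 3 of smallest p per direction and comparison. CPM were computed with TMM-scaled library sizes. Genes were filtered by filterByExpr (16410 left), and 1 edgeR 4.0.16 quasi-likelihood model without covariates (R 4.3.3, robust dispersion, Benjamini-Hochberg adjustment over all tested genes at 0.05, two-sided) was fitted to all 3 groups. The rounded mean of cfos 2 and cfos 3 was used as 1 sample, since their chi-square per gene was 0.824, against 9.08 to 58.5 in the other pairs. Standard errors are the log2 fold change over the square root of F. A fold against a group at 0 is a lower bound at 3 counts over that group, and with 1 to 3 counts it is a ratio with an exact 95% interval. Sums over mCherry include mCherry 2, and sums over cfos use averaged counts, so these intervals are approximate. Medians were the same with such genes at their bound or ratio. Alternatives were DESeq2 1.42.0, limma-voom 3.58.1, other scalings and filters, all 9 columns, a replicate block and leaving out each library. The script was tested on simulated data. Coordinates and copies come from GENCODE M21 (mm10), and pairs were aligned with Biopython. One gene of the pathway list is not reported here by name.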

Additional observations from a re-analysis of the deposited data

How the results depend on the processing

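The 0 calls of the edgeR fit held under RLE scaling, a stricter filter, fits to only the groups compared, limma-voom without mCherry 2, the replicate block and the removal of any library (lowest 0, highest 0 in genes and members). They changed with the tool and the filter, and the cause was not tested. DESeq2 called 905, 893 and 1530 genes and 3, 3 and 2 members in overlap against mCherry, overlap against cfos and cfos against mCherry. limma-voom with sample weights called 1332 genes and 5 members in the first, 2163 genes and 4 members in the last, and 0 in overlap against cfos. DESeq2 without mCherry 2 called 141, 412 and 553 genes and 1, 2 and 0 members. Without a filter on low counts edgeR called 484, 214 and 1197 genes, and 1 member (Psme2b, cfos against mCherry). With all 9 columns as separate samples it called 15 genes in overlap against cfos and 247 in cfos against mCherry, and with upper-quartile scaling 2 in cfos against mCherry.

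Medians of the members ran from -0.54 to 0.01 in overlap against mCherry, from -0.62 to 0.24 in overlap against cfos and from 0.00 to 0.48 in cfos against mCherry when a single library, or cfos 2 and cfos 3 together, was left out. Their sign changed without overlap 3 in the first and without cfos 1 in the second, while the median of the last was 0.00 without cfos 1. Of 427 values of 22 named member results under the alternatives, 406 kept their direction and side of the threshold, 21 passed it and 0 reversed. A further 8 DESeq2 values of these results have no adjusted p and were left out. Psmd11 passed it in overlap against mCherry under 3 settings.

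With the replicate number as a block over all 9 columns, edgeR called 0 genes and 0 members in each comparison. Deviations of same-numbered libraries correlated at -0.04 to 0.05 over 9 pairs, beside -0.06 to 0.06 otherwise. Still, 6 of 9 libraries correlated best with their own number. Some columns of mCherry and cfos are not separate samplings, so this check cannot decide whether the numbers pair the samples. Of the 50 members, 14 did not pass the count filter and were not tested.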
